A study of Mus musculus with 7 samples.

Results

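The matrix metalloproteinases (MMPs), the ADAMTS proteases, the ADAMTS-like proteins and the tissue inhibitors of metalloproteinases (TIMPs) were examined in kidneys of mice without lamin B receptor (LBR). Members were all gene symbols of the deposited tables that begin with Mmp, Timp, Adamts or Adamtsl followed by a number, except Mmp8. This gave 50 of the 24328 symbols listed, namely 22 MMP, 4 TIMP, 19 ADAMTS and 5 ADAMTS-like genes. Of these, 43 had a mean over mice of at least 5 normalized counts and entered the tests. LBR-null mice were homozygous for the loss-of-function allele Lbric-J (Lbric-J/ic-J), and the wild-type (WT) littermate was Lbr+/+. All mice were on the C57BL/6J background and 4 weeks old, and the labels name no treatment. RNA came from aliquots of 1 pulverized kidney per mouse and was selected for poly(A). LBR-null mice 4001 and 4007 and WT mouse 4009 gave 2 libraries each, and LBR-null mouse 4002 gave 1. Values are normalized counts, that is, reads divided by a size factor that DESeq2 gave each library, averaged over the libraries of a mouse, so that n is 3 LBR-null mice against 1 WT mouse.

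MMPs are zinc-dependent endopeptidases that are made as inactive proenzymes and, once their prodomain is removed, cut collagens, elastin, laminins and many other proteins of the extracellular matrix. ADAMTS proteases are secreted relatives that cut proteoglycans such as versican, trim the amino-terminal propeptides of fibrillar procollagens or cut von Willebrand factor, and ADAMTS-like proteins share their ancillary domains but have no protease domain. TIMPs bind the active site of MMPs, and TIMP3 also holds ADAMTS and ADAM proteases in check. In the kidney many of these genes are expressed by fibroblasts, mesangial and vascular cells and leukocytes, with contributions from tubules, and their balance sets how quickly the interstitial matrix and the mesangial matrix turn over.

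The libraries held 20694016 to 26333284 reads on genes, and members took 0.147% to 0.225% of them. A single read was worth 0.787 to 1.15 normalized counts, and 44 to 47 of the 50 members were detected per library. Lbr transcripts were at 322, 340 and 471 normalized counts in LBR-null mice 4001, 4002 and 4007 and at 398 in WT mouse 4009, so transcript level does not test the genotype labels of this allele. The labels give no sex. Xist was at 5785 and 9940 in mice 4001 and 4007 against 65.3 and 35.5 in mice 4002 and 4009, and the Y-linked Ddx3y was at 141 and 44.3 against 1516 and 1284. Mouse 4002 is therefore the only LBR-null mouse with an Xist level near that of the WT mouse. In mice 4001 and 4007, and so in part in the means of 3 LBR-null mice, genotype and a difference of sex from the WT mouse cannot be told apart. Mouse 4001 stood apart in markers of other tissues, with 835 summed normalized counts of 5 skeletal muscle genes against 64.8 to 98.2 in the other mice and 28378 of 6 hepatocyte genes against 6788 to 13464. Results are given with each mouse named for this reason.

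Of the 50 genes, 9 MMP genes (Mmp13, Mmp12, Mmp1b, Mmp3, Mmp1a, Mmp10, Mmp27, Mmp20 and Mmp7) lie next to each other on chromosome 9, at 7272514 to 7699585 of mm9, a span of 427 kb. Promoter windows from RefSeq (table build GRCm38.p6), which run from 250 bases before to 50 bases after a transcript start, were found for 35 members in 38 windows. Each window had exactly 1 match in mm9, and positions are given in mm9 from that match. The windows of 3 cluster genes are shown because these are the tested genes of the cluster, and their promoters share 2 short stretches. Capitals mark TGANTCA, the letters bound by AP-1 factors, and TATAAA, the letters of a TATA box. Mmp13 (chr9:7272264-7272563, plus strand) encodes collagenase 3, Mmp12 (chr9:7347124-7347423, plus strand, the second of its 2 windows) macrophage elastase and Mmp3 (chr9:7445572-7445871, plus strand) stromelysin 1.
Mmp13: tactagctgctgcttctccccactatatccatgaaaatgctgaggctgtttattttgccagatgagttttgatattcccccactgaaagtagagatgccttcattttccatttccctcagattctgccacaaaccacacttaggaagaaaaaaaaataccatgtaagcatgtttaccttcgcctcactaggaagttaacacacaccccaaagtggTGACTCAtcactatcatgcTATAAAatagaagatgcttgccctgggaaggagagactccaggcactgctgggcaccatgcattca
Mmp12: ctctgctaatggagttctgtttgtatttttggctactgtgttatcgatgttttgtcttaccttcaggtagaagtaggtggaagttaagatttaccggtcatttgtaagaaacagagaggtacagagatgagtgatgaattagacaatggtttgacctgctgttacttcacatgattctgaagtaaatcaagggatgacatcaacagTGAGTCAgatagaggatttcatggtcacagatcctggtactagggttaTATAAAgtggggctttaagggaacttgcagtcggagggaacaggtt
Mmp3: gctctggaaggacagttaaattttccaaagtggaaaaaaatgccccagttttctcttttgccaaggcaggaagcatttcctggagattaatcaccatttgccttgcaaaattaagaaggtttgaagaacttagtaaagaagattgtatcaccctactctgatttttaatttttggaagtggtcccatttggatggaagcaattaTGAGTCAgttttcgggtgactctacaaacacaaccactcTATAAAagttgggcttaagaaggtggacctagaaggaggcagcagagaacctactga
The AP-1 letters begin 35, 44 and 46 bases before the start in Mmp13, Mmp12 and Mmp3. TATAAA begins 16 bases before the start in Mmp13 and 7 before it in Mmp3, and at base 5 after the start in Mmp12. Whether these letters act as TATA boxes was not tested. The first window of Mmp12 holds neither motif, and that window set its CpG class below. In the cluster, 8 of 9 genes held both the AP-1 letters and TATAAA in a window, with Mmp27 as the exception, and 0 of the 26 other members with a window held the AP-1 letters. Over the first windows of members, 20.0% held TGANTCA on either strand against 7.93% of 27025 first windows in the whole table, and 28.6% held TATAAA on either strand against 14.2%. The 2 motifs did not overlap in the windows shown.

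The other members had promoters of mixed base composition. A window was called CpG-rich with a GC content of at least 50% and a CpG observed over expected ratio above 0.6. This held for 17 of 35 members (48.6%) against 34.1% of all first windows, and for 0 of the 9 cluster genes. The class is not that of the study, which joins sequence-defined CpG islands near the start with regions found by affinity purification. In the study, genes without islands lack both through the gene body. Its classes were not used here. The windows of Adamtsl2 (chr2:26934649-26934948, plus strand), Timp4 (chr6:115202174-115202473, minus strand), Mmp14 (chr14:55050185-55050484, plus strand) and Adamts14 (chr10:60736118-60736417, minus strand) are shown because these genes, each without overlap of libraries between genotypes, differ widely in CpG content. The study relates a lack of CpG islands to misexpression. Capitals mark each CpG.
Adamtsl2: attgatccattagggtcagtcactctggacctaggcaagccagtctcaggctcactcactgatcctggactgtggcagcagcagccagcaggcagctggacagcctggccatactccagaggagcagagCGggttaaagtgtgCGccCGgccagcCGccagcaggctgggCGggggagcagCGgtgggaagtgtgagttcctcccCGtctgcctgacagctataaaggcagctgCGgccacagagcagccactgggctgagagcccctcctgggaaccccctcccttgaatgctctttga
Timp4: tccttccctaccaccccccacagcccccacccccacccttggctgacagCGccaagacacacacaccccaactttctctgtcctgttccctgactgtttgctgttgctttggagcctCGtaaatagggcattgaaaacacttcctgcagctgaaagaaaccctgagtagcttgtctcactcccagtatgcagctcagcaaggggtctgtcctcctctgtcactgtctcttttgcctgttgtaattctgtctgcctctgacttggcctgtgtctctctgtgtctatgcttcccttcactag
Mmp14: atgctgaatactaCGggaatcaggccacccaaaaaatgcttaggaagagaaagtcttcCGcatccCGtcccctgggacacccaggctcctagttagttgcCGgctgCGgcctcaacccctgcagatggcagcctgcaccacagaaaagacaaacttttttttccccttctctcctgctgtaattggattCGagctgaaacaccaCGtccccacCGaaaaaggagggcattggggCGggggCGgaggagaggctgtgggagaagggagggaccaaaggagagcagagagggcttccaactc
Adamts14: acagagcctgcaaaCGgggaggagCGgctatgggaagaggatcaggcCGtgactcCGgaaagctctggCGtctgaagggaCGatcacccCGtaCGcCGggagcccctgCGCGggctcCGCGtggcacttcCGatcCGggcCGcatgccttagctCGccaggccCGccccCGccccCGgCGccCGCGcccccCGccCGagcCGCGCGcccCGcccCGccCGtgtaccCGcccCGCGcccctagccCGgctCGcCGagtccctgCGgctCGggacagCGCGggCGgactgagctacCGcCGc
They hold 8, 2, 10 and 44 CpGs, and only the Adamts14 window was CpG-rich. The difference between genotypes was compared with this property. Of 16 tested members with a CpG-rich window, 3 had all LBR-null libraries above the WT libraries and 5 had them all below, and their median log2 fold change was -0.27. Of 12 tested members with another window, 2 lay higher and 5 lower, with a median log2 fold change of -0.43. Over all tested genes, 25.5% lay higher and 25.7% lower in this way. Both classes held members on both sides. Mmp13 and Mmp12, the 2 members with the most negative log2 fold changes, had among the fewest CpGs, and so did Timp4, which lay on the other side.

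**Figure D1:**
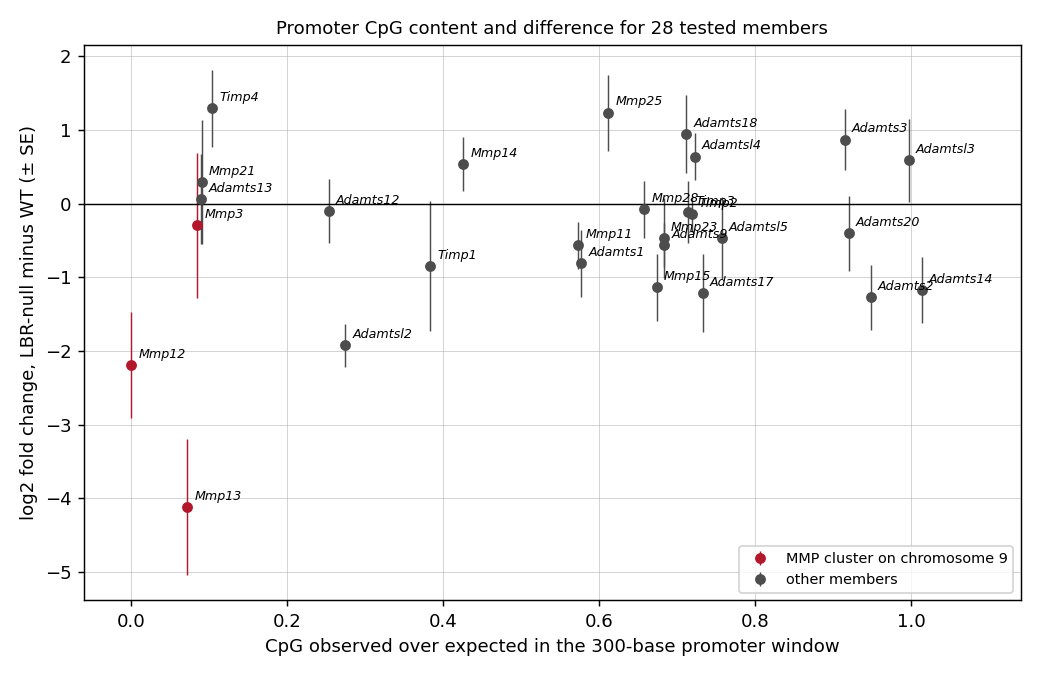
Promoter CpG content and genotype difference. Each point is 1 of 28 tested members with a RefSeq window, with the CpG observed over expected ratio on the x axis and the limma log2 fold change (LBR-null minus WT, bars ± SE) on the y axis. Members with few CpGs ranged from Mmp13 at -4.12 to Timp4 at 1.29, and members of the chromosome 9 cluster are red.

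Levels were first compared among genes, per kb of exon. Timp3 was the most abundant member, with a mean over mice of 3369 normalized counts per kb. Timp2 followed with 797, Mmp14 with 704, Adamts10 with 251 and Adamts1 with 197. Timp3 alone was 75.1%, 81.7% and 80.4% of the TIMP sum per kb in mice 4001, 4002 and 4007 and 79.3% in the WT mouse. At the other end, Mmp1a, Mmp1b and Mmp10 were listed at 0 in all 7 libraries. Mmp1a and Mmp1b are similar copies of an interstitial collagenase gene, so reads shared between them may have been lost in counting. Mmp24, Mmp27, Mmp20 and Mmp7 stayed under the minimum, with 16, 20, 24 and 14 reads over the 5 LBR-null libraries and 18, 4, 2 and 0 reads over both WT libraries. A count of 0 allows up to 3 reads per library, or 2.36 to 3.44 normalized counts, and this limit covers counting error only.

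**Figure D2:**
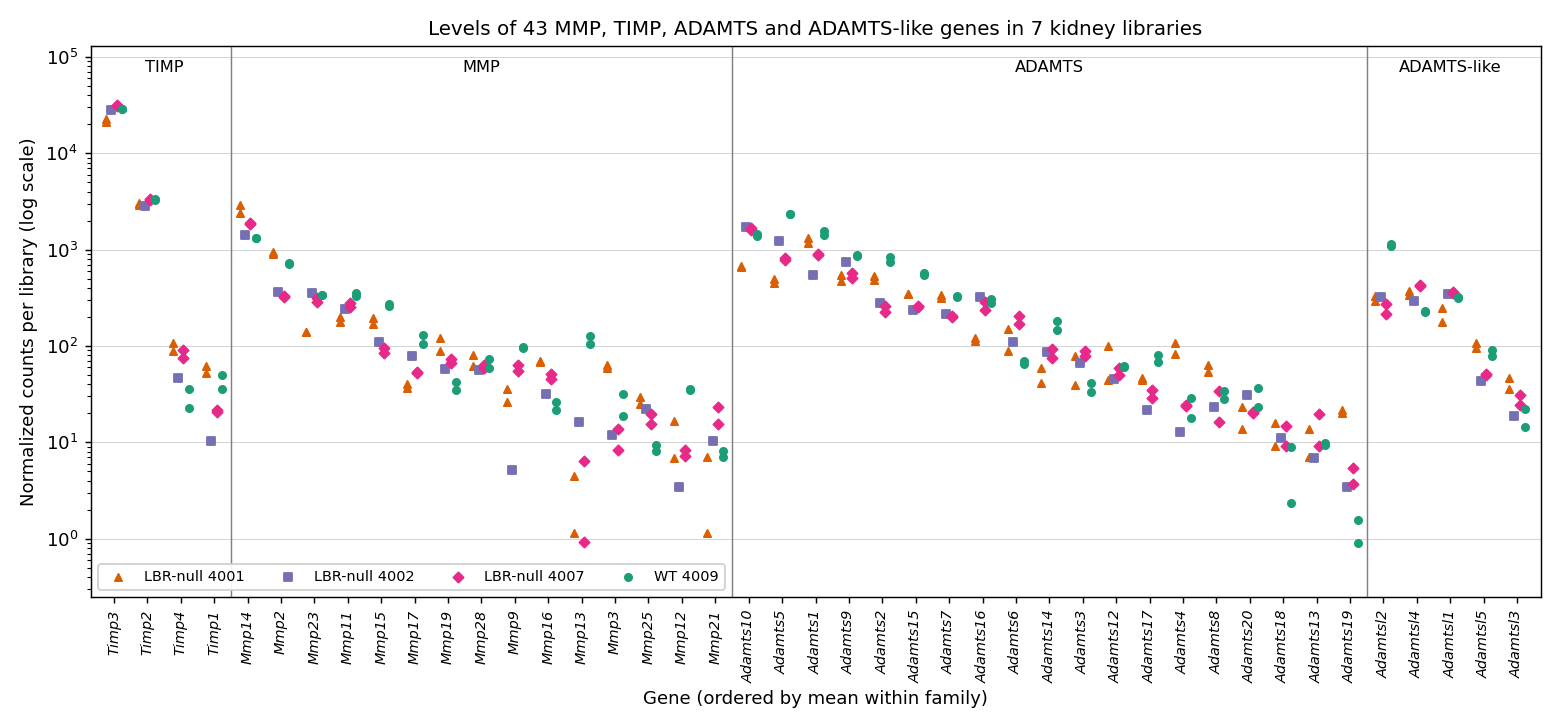
Levels of the 43 tested members. Each point is 1 library (normalized counts, log scale), genes are grouped by family and ordered by mean, and symbols mark the mouse. Libraries of a mouse lie close together for abundant genes, and Mmp13 and Adamtsl2 show WT libraries well above all LBR-null libraries.

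Next, LBR-null kidneys were compared with the WT kidney. More members lay lower than higher. Mmp13, Mmp12, Mmp9, Adamtsl2, Adamts5, Adamts2, Adamts14, Adamts17, Mmp15 and Mmp17 were at least 2-fold lower in the mean of the LBR-null mice, and Adamts19, Timp4, Mmp25, Adamts18, Mmp16, Adamts6 and Mmp19 were at least 2-fold higher. These were 10 lower (23.3% of 43, against 7.04% of all 17283 tested genes) and 7 higher (16.3%, against 14.5%). All 10 and all 7 also had every LBR-null library on that side of both WT libraries (backgrounds 6.81% and 11.7%). With no requirement on size, 14 members lay lower in every LBR-null library (32.6%, background 25.7%) and 9 lay higher (20.9%, background 25.5%). Adamts19 entered the test only through its LBR-null level in mouse 4001, and without it 6 of 42 members were at least 2-fold higher and 8 of 42 lay higher in every library. The median log2 fold change was -0.30 over the 43 members and 0.01 over all tested genes. It was -0.47 for 15 MMP, -0.40 for 19 ADAMTS, -0.13 for 4 TIMP and -0.11 for 5 ADAMTS-like genes.

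These differences did not pass the test across all genes. limma, with Benjamini-Hochberg adjustment, called 0 members and 0 of 17283 genes in either direction at an adjusted p under 0.05 and 2-fold (0% of all genes). At an unadjusted p under 0.05, limma gave 8 members lower (8.05% of all genes were) and 1 higher (10.7% of all genes were). edgeR's quasi-likelihood test called 0 members and 27 genes lower (0.156%), and 0 members and 1 gene higher (0.00579%). DESeq2 on reads summed per mouse called 2 members lower, Adamtsl2 and Mmp13 (background 3.33%), and 0 higher (3.08%). DESeq2 on single libraries, which takes libraries of a mouse as replicates, called 9 members lower (6.33%) and 6 higher (10.7%). A permutation over 3 mice against 1 cannot give a one-sided p below 0.25, and the fit assumes that the lone WT mouse varies as the LBR-null mice do. In bulk RNA, fewer cells of a type and less RNA per cell cannot be told apart.

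**Figure D3:**
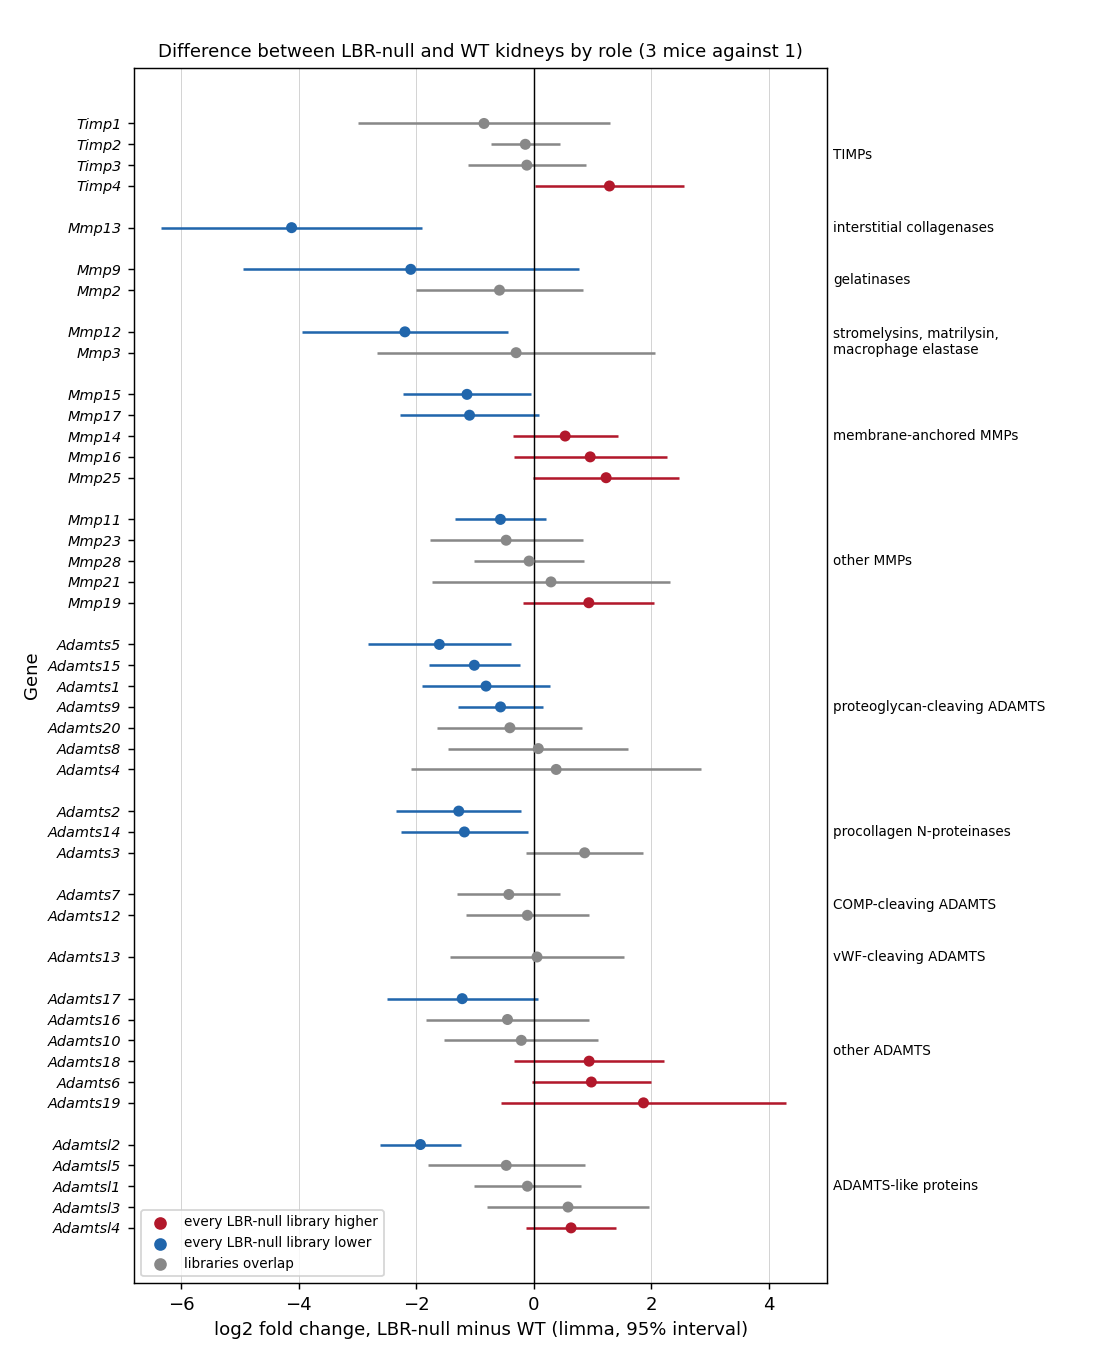
Genotype difference of the 43 tested members, grouped by role. Points are limma log2 fold changes (LBR-null minus WT, 3 mice against 1) with 95% intervals, red where every LBR-null library was higher than both WT libraries, blue where every one was lower and grey where libraries overlapped. Intervals that exclude 0 before adjustment belong to Mmp13, Mmp12, Mmp15, Adamts5, Adamts15, Adamts2, Adamts14, Adamtsl2 and Timp4.

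Among the collagenases, Mmp13 had the largest difference of all tested members. Its product opens the triple helix of fibrillar collagens. Mmp13 was at 1.15 and 4.44 normalized counts in the libraries of mouse 4001, 16.3 in mouse 4002, 0.931 and 6.38 in mouse 4007 and 128 and 104 in the WT libraries. All LBR-null libraries lay far below both WT libraries, with the highest of them in mouse 4002. The means were 7.59 ± 7.58 (SD, n = 3) and 116, a 15.3-fold difference, with a log2 fold change of -4.12 (SE 0.92, limma adjusted p = 0.114, DESeq2 adjusted p = 0.00137). Single mice were 41.6-fold, 7.11-fold and 31.8-fold lower in the order 4001, 4002 and 4007.

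Mmp12, macrophage elastase, showed the same side at lower counts. It was at 6.89 and 16.9 in mouse 4001, 3.44 in mouse 4002, 8.38 and 7.29 in mouse 4007 and 35.4 and 35.3 in the WT libraries, with no overlap. The difference was 4.58-fold, with a log2 fold change of -2.19 (SE 0.73, limma adjusted p = 0.182). Exons of Mmp12 overlap those of Mmp1b on the opposite strand by 157 bases, and Mmp1b was listed at 0. Mmp3, stromelysin 1, which activates other MMPs, did not follow its neighbors. Mouse means of Mmp3 were 61.3 in 4001, 12.0 in 4002 and 11.03 in 4007 against 25.3 in the WT mouse, so mouse 4001 lay above WT and the other LBR-null mice below.

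The gelatinases cut denatured collagen and the collagen of basement membranes. Mmp9 was at 26.4 and 35.5 in mouse 4001, 5.16 in mouse 4002, 64.3 and 54.7 in mouse 4007 and 97.6 and 94.99 in the WT libraries. All LBR-null libraries were lower than WT, but their mice were 11.5-fold apart, the widest spread of any tested member. The log2 fold change was -2.09 (SE 1.18, limma adjusted p = 0.396). Mmp2 was at 927, 365 and 327 in mice 4001, 4002 and 4007 and 719 in the WT mouse. Mouse 4001 lay above WT and the others below, and the log2 fold change of -0.58 (SE 0.59, limma adjusted p = 0.643) was smaller than its error.

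Leukocytes are known sources of Mmp9, Mmp12 and Mmp25. Of 10 neutrophil markers, 9 were tested and 7 lay higher in every LBR-null library. Among the 7, Retnlg, Ngp, Camp, Mpo and Cxcr2 had WT values under the minimum and entered the test only through the LBR-null mice. The sum of all 10 was 457 to 2549 normalized counts in LBR-null mice against 107 in the WT mouse, with no marker at 0 throughout. Of 10 macrophage markers, 7 lay lower in every LBR-null library and 2 higher, and their sum was 3203 to 3510 against 4567. Of 11 osteoclast, bone and cartilage genes, looked up after the Mmp9 and Mmp13 values were seen, 6 were tested, 2 lay higher in every LBR-null library (Dcstamp and Dmp1) and 1 lower, and their median log2 fold change was 0.64. Their sum was 365 to 495 against 1186, and the lower gene, Acp5, a phosphatase of osteoclasts and macrophages, was at 33.9, 86.8 and 44.2 in mice 4001, 4002 and 4007 and 749 in the WT mouse. Ctsk overlapped at 224 to 407 against 402, and the osteoblast gene Ibsp was listed at 0. The part of these cells in the Mmp values was not tested.

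Membrane-anchored MMPs act at the cell surface, and they divided by gene. Mmp14, which activates pro-MMP2 and is the most abundant MMP, was at 2937 and 2423 in mouse 4001, 1432 in mouse 4002, 1881 and 1860 in mouse 4007 and 1321 and 1336 in the WT libraries. Every LBR-null library was higher, although mouse 4002 was only 1.08-fold above WT. The mean difference was 1.501-fold, with a log2 fold change of 0.54 (SE 0.37, limma adjusted p = 0.485). Mmp16 was at 69.2, 31.8 and 48.4 in mice 4001, 4002 and 4007 against 23.8, a 2.09-fold difference. Mmp25, also called leukolysin, was at 27.3, 22.4 and 17.5 against 8.80, a 2.54-fold difference with a log2 fold change of 1.23 (SE 0.51, limma adjusted p = 0.269). These 3 genes lay higher without overlap. Mmp15 was at 181, 109 and 90.2 against 267, a 2.11-fold difference in the other direction with a log2 fold change of -1.13 (SE 0.45, limma adjusted p = 0.251). Mmp17 was at 38.3, 78.2 and 53.0 against 117, 2.06-fold lower. Both lay lower in every LBR-null library.

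Of the other MMPs, Mmp19 and Mmp11 had no overlap of libraries. Mmp19, a secreted MMP, was at 105, 58.5 and 70.0 in mice 4001, 4002 and 4007 against 38.9 in the WT mouse, a 2.002-fold difference without overlap. Its exons overlap those of 1110012D08Rik on the opposite strand by 789 bases, so reads of the pair cannot be told apart without strand. Mmp11, stromelysin 3, was at 189, 245 and 265 against 342, 1.47-fold lower and without overlap. Libraries overlapped for Mmp21, Mmp23 and Mmp28.

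TIMPs differed from each other. Timp4 was at 107 and 88.7 in mouse 4001, 46.4 in mouse 4002, 75.4 and 92.1 in mouse 4007 and 35.4 and 22.6 in the WT libraries. Every LBR-null library was above both WT libraries, and mouse 4002 was the nearest to WT. The means were 76.0 ± 26.5 (SD, n = 3) and 29.0, a 2.62-fold difference with a log2 fold change of 1.29 (SE 0.52, limma adjusted p = 0.257). Timp4 lies in an intron of Syn2 on the opposite strand, with no shared exon.

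Timp3, which stays bound to the matrix, was at 21901, 27859 and 31079 in mice 4001, 4002 and 4007 and at 28894 in the WT mouse. The WT value lay within the LBR-null range, with a log2 fold change of -0.12 (SE 0.42, 95% interval -1.12 to 0.89). Its exons overlap those of Syn3 on the opposite strand by 1733 bases. Timp2 was at 2961, 2820 and 3304 against 3333, with a log2 fold change of -0.14 (SE 0.25, 95% interval -0.73 to 0.45). Timp1, the inducible inhibitor on the X chromosome, was at 62.0 and 52.4 in mouse 4001, 10.3 in mouse 4002, 20.5 and 21.9 in mouse 4007 and 49.6 and 36.2 in the WT libraries. Mouse 4001 lay above WT and the other LBR-null mice below, and the log2 fold change was -0.84 (SE 0.89, limma adjusted p = 0.657).

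The balance of inhibitors and proteases was described as the ratio of their sums per kb. The TIMP sum was 3583, 4189 and 4747 normalized counts per kb in mice 4001, 4002 and 4007 and 4472 in the WT mouse, and the MMP sum was 1639, 1024 and 1183 against 1247. Both WT sums lay within the LBR-null range. The ratio was 2.19, 4.09 and 4.01 for mice 4001, 4002 and 4007 and 3.59 for WT, so that mouse 4001 was below WT and the others above. Within the MMP sum the makeup differed, since Mmp14 took 62.9%, 53.8% and 60.9% in the LBR-null mice and 41.0% in the WT mouse. Without Mmp14 the MMP sum was 607, 473 and 462 in mice 4001, 4002 and 4007 and 736 in the WT mouse. The ADAMTS sum was 740, 850 and 849 against 1263 and the ADAMTS-like sum 171, 154 and 180 against 243, with every LBR-null mouse below WT in both. The lower ADAMTS-like sum rested on Adamtsl2, at 38.8, 40.7 and 30.6 per kb in mice 4001, 4002 and 4007 against 139. Adamtsl4, the most abundant ADAMTS-like gene per kb, lay higher, at 85.3, 69.8 and 102 against 54.3. The median log2 ratio of the ADAMTS-like genes to WT was above 0 in each LBR-null mouse (0.26, 0.05 and 0.18).

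**Figure D4:**
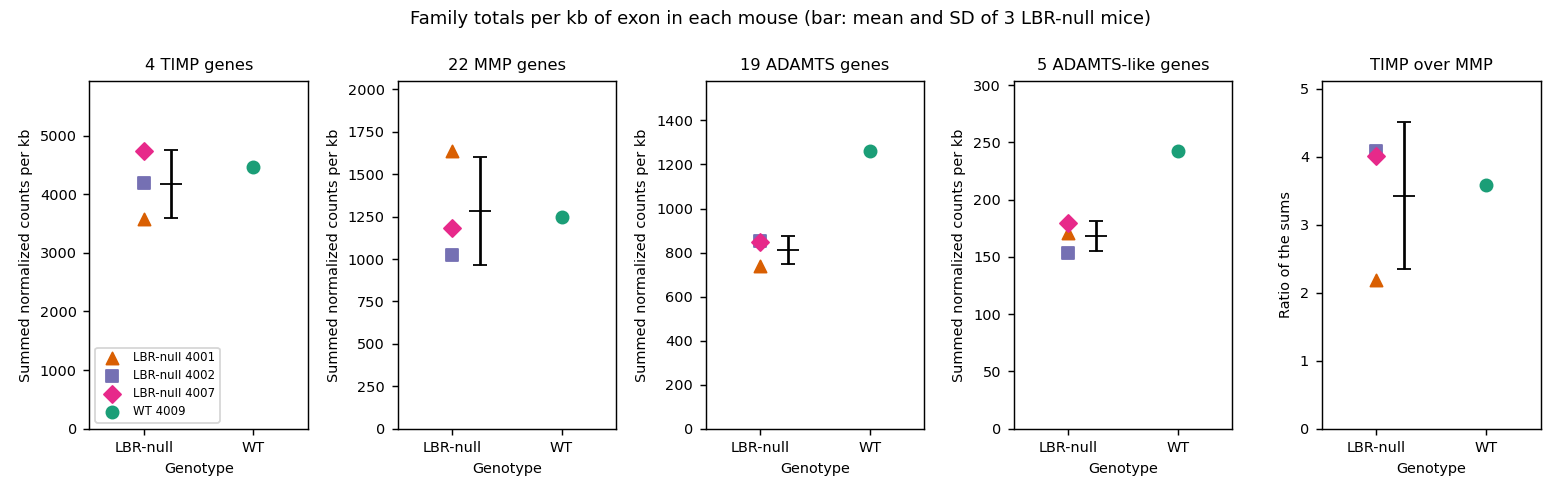
Family sums per kb of exon and the ratio of TIMP to MMP. Points are mice, and the bar gives the mean and SD of the 3 LBR-null mice beside the 1 WT mouse. All LBR-null mice lie below the WT mouse for ADAMTS (740 to 850 against 1263) and ADAMTS-like genes, and on both sides of it for TIMP, MMP and their ratio. The ADAMTS-like difference rests on Adamtsl2 (30.6 to 40.7 per kb against 139).

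Proteoglycan-cleaving ADAMTS genes lay lower or overlapped, and 0 of 7 lay higher in every library. Adamts5, an aggrecanase and versicanase, was at 491 and 453 in mouse 4001, 1236 in mouse 4002, 815 and 784 in mouse 4007 and 2358 and 2363 in the WT libraries. No library overlapped, with mouse 4001 lowest. The means were 836 ± 383 (SD, n = 3) and 2360, a 2.82-fold difference with a log2 fold change of -1.60 (SE 0.50, limma adjusted p = 0.167). Adamts1, its neighbor 55.1 kb away on chromosome 16, was at 1248, 541 and 896 against 1483, a 1.66-fold difference without overlap in which mouse 4001 was the highest LBR-null mouse. The order of the LBR-null mice was thus opposite in these neighbors.

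Adamts15 was at 346, 237 and 257 in mice 4001, 4002 and 4007 and 557 in the WT mouse, 1.99-fold lower, with a log2 fold change of -1.01 (SE 0.32, limma adjusted p = 0.169). Adamts9, which also cuts versican, was at 506, 739 and 538 against 866, 1.46-fold lower. Its exons overlap those of A730049H05Rik on the opposite strand by 1381 bases. Both genes lay below WT in every LBR-null library. Adamts4, Adamts8 and Adamts20 overlapped, and Adamts4 was at 94.6 in mouse 4001 against 12.9, 23.96 and 23.6 in mice 4002, 4007 and WT.

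Procollagen N-proteinases remove the amino-terminal propeptide of fibrillar collagens. Adamts2 was at 535 and 480 in mouse 4001, 279 in mouse 4002, 225 and 263 in mouse 4007 and 751 and 830 in the WT libraries. All LBR-null libraries were lower, mouse 4001 being the nearest to WT. The difference was 2.30-fold, with a log2 fold change of -1.27 (SE 0.44, limma adjusted p = 0.196). Adamts14 was at 50.4, 87.7 and 84.4 in mice 4001, 4002 and 4007 against 164, 2.21-fold lower and without overlap (log2 fold change -1.18, SE 0.45, limma adjusted p = 0.229). Adamts3 was on the other side, at 58.6, 66.2 and 83.9 against 37.2, although its lowest LBR-null library reached the WT libraries.

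Among other ADAMTS genes, Adamts10, a microfibril-associated member and the most abundant ADAMTS per kb, was at 672 in mouse 4001 against 1714, 1653 and 1433 in mice 4002, 4007 and WT. Only mouse 4001 was lower, and without it the log2 fold change turned from -0.21 to 0.23. Adamts17 was at 45.7, 21.5 and 31.8 against 74.5, 2.26-fold lower without overlap. Adamts6 was at 119, 109 and 187 against 67.6, 2.05-fold higher without overlap. Adamts18 was at 12.6, 11.2 and 12.0 against 5.70, 2.09-fold higher, but its lowest LBR-null library (9.11) and the higher WT library (9.05) were nearly equal. Adamts19 was at 21.1, 3.44 and 4.60 in mice 4001, 4002 and 4007 against 1.24 for WT. It was the only member at least 2-fold higher in each LBR-null mouse (8.41% of all genes were), at counts near the limit of detection outside mouse 4001, and nothing is read from this since Adamts19 passed the minimum mean only through mouse 4001. Adamts7, Adamts12, Adamts13 and Adamts16 overlapped, and Adamts13, which cuts von Willebrand factor, was at 6.88 to 14.3 against 9.70.

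Among the ADAMTS-like genes, Adamtsl2 had the lowest limma p of all tested members. It encodes a secreted glycoprotein of microfibrils that binds latent TGF-beta binding protein 1. Adamtsl2 was at 291 and 330 in mouse 4001, 325 in mouse 4002, 216 and 273 in mouse 4007 and 1136 and 1082 in the WT libraries. The LBR-null libraries lay close together and all far below WT. The means were 293 ± 42.99 (SD, n = 3) and 1109, a 3.78-fold difference with a log2 fold change of -1.93 (SE 0.29, limma adjusted p = 0.084, DESeq2 adjusted p = 3.21e-06). Together with Mmp13 and Mmp12 it was at least 2-fold lower in each LBR-null mouse, which 4.02% of all genes were. Its neighbor Adamts13, 69.8 kb away on chromosome 2, did not share this. Adamtsl4 was at 358, 293 and 427 against 228, 1.58-fold higher without overlap (log2 fold change 0.64, SE 0.31, limma adjusted p = 0.338). Adamtsl1, Adamtsl3 and Adamtsl5 overlapped.

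Markers of stromal cells were examined beside these values. Of 10 fibroblast markers, 3 lay lower in every LBR-null library (Col1a1, Col1a2 and Col3a1) and 0 higher, and the sum of all 10 was 31075, 15272 and 15984 normalized counts in mice 4001, 4002 and 4007 against 39999 in the WT mouse. The 3 collagen genes made up 33004 of the WT sum, and the other 7 markers summed to 15357, 6183 and 9921 against 6994, above WT in mice 4001 and 4007. Dcn and Lum were at least 2-fold higher in the LBR-null mean, with libraries that overlapped WT. Of 8 mesangial, pericyte and smooth muscle markers, 5 lay lower and 0 higher, and their sum was 7755 to 9310 against 15387. The fibroblast gene Pdgfra was at 2234, 2873 and 3478 against 2336, on both sides of WT. No marker of either list was at 0 in all libraries. Of 6 adipocyte markers, 4 lay lower, Adipoq among them at 2.58 to 29.6 against 120, while the sum of all 6 was 7831, 6710 and 5229 against 6451, on both sides of WT. The part of these cells in the ADAMTS and MMP values was not tested.

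The LBR-null mice also differed among themselves. Of 43 members, 24 had mouse means at least 2-fold apart between the highest and lowest LBR-null mouse, and the median of this ratio was 2.08. Both libraries of a mouse were closer, with median differences of 1.16-fold in mouse 4001, 1.11-fold in mouse 4007 and 1.09-fold in mouse 4009, after 1 was added to each value. Mouse 4001 was the highest LBR-null mouse for 23 members and mouse 4002 the lowest for 22. For 11 members, mouse 4001 lay on the opposite side of WT from both other LBR-null mice, among them Timp1, Mmp2, Mmp3, Adamts8 and Adamts10. Mouse 4001 also had the highest levels of the interstitial fibroblast genes Lum (1058 against 31.7 to 146 in the other mice) and Dpt (1005 against 104 to 379), beside the muscle and hepatocyte genes given above. In the same fibroblast list, Pdgfra was lowest in mouse 4001. The 3 collagen genes summed to 15717 there, above the other LBR-null mice but below the 33004 of WT. The part of these cells in the values of the members was not tested.

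**Figure D5:**
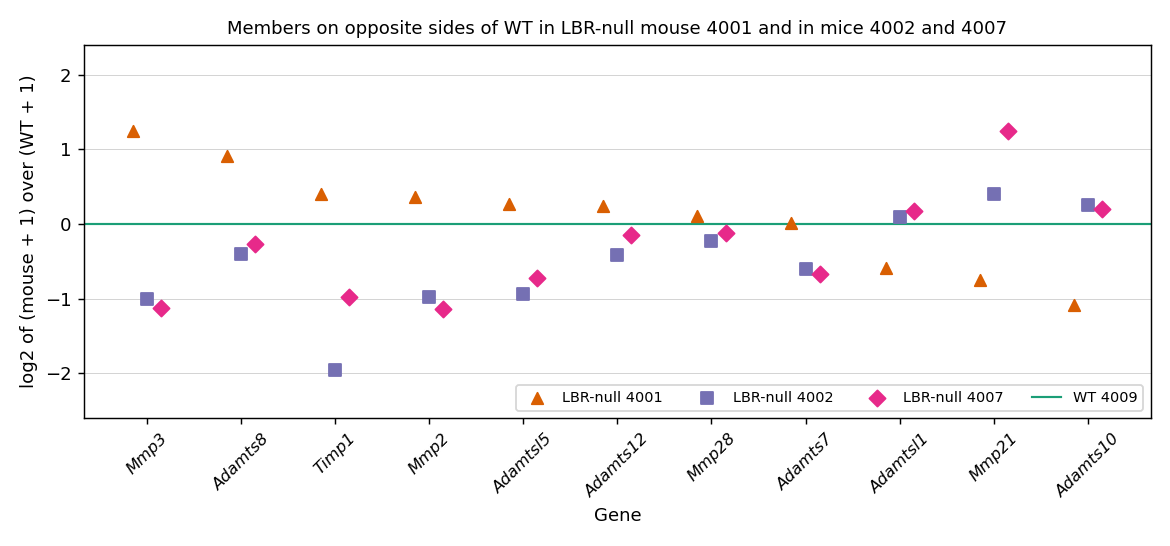
The 11 tested members for which LBR-null mouse 4001 lay on the opposite side of WT from mice 4002 and 4007. Points are the log2 ratio of each mouse to the WT mouse (pseudocount 1, mouse means), and the line at 0 is WT. Mmp3, Adamts8, Timp1 and Mmp2 are above WT in mouse 4001 and below it in the others, while Adamts10 is below it in mouse 4001 alone.

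Taking each LBR-null mouse alone against WT, mouse 4001 had 10 members at least 2-fold higher and 10 lower (15.7% and 10.8% of all genes), mouse 4002 had 2 and 11 (11.7% and 7.20%) and mouse 4007 had 7 and 12 (14.8% and 9.52%). Mouse 4002, the LBR-null mouse with an Xist level near that of WT, had Adamts19 and Mmp25 on the higher side and Adamts1, Adamts15, Adamts17, Adamts2, Adamtsl2, Mmp12, Mmp13, Mmp15, Mmp3, Mmp9 and Timp1 on the lower. The 3 mice share the WT mouse, so these counts are not independent. The median log2 ratio of members to WT was -0.17, -0.40 and -0.17 in mice 4001, 4002 and 4007.

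The study lists 12 of the members among genes changed in affected kidneys of aged diversity outbred mice. The direction of their change in those kidneys was not compared here. In the LBR-null kidneys, 10 of them were tested, limma called 0, and 3 lay higher (Mmp14, Mmp19 and Mmp25) and 3 lower (Mmp9, Adamts2 and Adamts17) in every library, close to the 25.5% and 25.7% of all genes. The other 4 tested genes, Timp1, Mmp2, Mmp3 and Adamts4, were those in which mouse 4001 exceeded WT while other LBR-null mice did not or hardly did.

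Genes that act with the members were listed by function, and limma called 0 genes of each list. Over all tested genes, 25.5% lay higher and 25.7% lower in every LBR-null library, and no list was tested against that share. Of 8 other inhibitors and clearance receptors, 4 lay higher and 2 lower in every LBR-null library. A2m, a broad protease trap counted among the 4 higher genes, was at 31.1, 11.2 and 10.1 in mice 4001, 4002 and 4007 against 1.63. Its WT value lay under the minimum mean, so A2m entered the test only through the LBR-null mice. Nothing is read from its difference or from its place among the 4. Spock2, a proteoglycan that modulates membrane-type MMP activity, was at 378, 86.0 and 213 against 39.8, 5.67-fold higher. Spock3 was 2.08-fold higher, and Tfpi2, a serine protease inhibitor of the matrix, was at 147, 87.7 and 97.7 against 266, 2.401-fold lower. Reck, a membrane-anchored MMP inhibitor, was at 346 to 518 against 425 and overlapped.

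Of 10 activators and inducers of MMPs, 3 lay higher and 3 lower in every library. Plau, urokinase, was at 41435, 22145 and 18799 in mice 4001, 4002 and 4007 against 11663 (2.35-fold, log2 fold change 1.15, SE 0.53, limma adjusted p = 0.307), and plasminogen (Plg) was at 216, 58.5 and 64.0 against 46.2. Plg is a hepatocyte gene. Its level and the hepatocyte sum were both highest in mouse 4001, and the part of these cells in the Plg values was not tested. The brush border meprins Mep1a and Mep1b were 2.23-fold and 2.12-fold lower. Of 8 proximal tubule markers, whose cells carry the meprins, 7 lay lower as well, with sums of 44964 to 52097 against 124288, and the part of these cells in the meprin values was not tested. Of 11 ADAM and meprin genes, 8 lay lower and 1 higher. Adam12, a metalloproteinase of mesenchymal cells, was at 57.1, 121 and 69.1 against 700, 8.49-fold lower (log2 fold change -3.14, SE 0.48, limma adjusted p = 0.087). Adam19 was 2.27-fold lower. Adamdec1 was 2.88-fold higher, with an LBR-null mean of 9.75 normalized counts against 3.38 in the WT mouse. That WT value lay under the minimum, so Adamdec1 entered the test only through the LBR-null mice and nothing is read from its fold.

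Of 12 substrates of ADAMTS proteases, 10 were tested, and 5 lay lower and 2 higher in every library. Col1a1 was at 1776, 1016 and 767 in mice 4001, 4002 and 4007 against 6661, 5.62-fold lower (log2 fold change -2.58, SE 0.46, limma adjusted p = 0.094), Col1a2 was 2.94-fold lower and Col3a1 2.83-fold lower. Of the 3 procollagen N-proteinases, Adamts2 and Adamts14 also lay lower and Adamts3 did not. Vcan, versican, was at 224, 261 and 107 against 502, 2.55-fold lower, and of the 7 proteoglycan-cleaving ADAMTS genes Adamts5, Adamts15, Adamts1 and Adamts9 also lay lower, while Adamts4, Adamts8 and Adamts20 overlapped. Ncan, neurocan, was at 22.5, 24.1 and 30.8 against 3.33, 7.76-fold higher. Its WT value lay under the minimum of 5, so Ncan entered the test only through the LBR-null mice and nothing is read from its fold. Of 8 tested AP-1 and ETS genes, Fosl2 was at 2307, 1437 and 2239 against 876, 2.28-fold higher, and Junb was 1.91-fold higher, both in every library. Fos overlapped and Ets1 was 1.55-fold lower. The AP-1 letters were present in the windows of Mmp13 and Mmp12, which lay lower, and of Mmp3, which did not separate from WT.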

How the data were processed

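Poly(A) RNA of mouse kidneys was sequenced in 7 libraries from 4 mice. The authors used STAR 2.6.0 with the mm9 genome, and the deposited signal for each gene symbol is its number of reads over a size factor from DESeq2 1.25.1. The counting program, its annotation and its use of strand are not given in the sources used here. All deposited values were whole multiples of 1 read within 0.01 read (100% of values), so reads were recovered by division. Both libraries of a mouse were averaged and the mouse was the replicate, and p-values therefore rest on 4 mice.

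The main test was limma 3.58.1 (R 4.3.3, eBayes with trend) on mouse means as log2(normalized counts + 1), over the 17283 genes whose mean was 5 or more, adjusted by Benjamini-Hochberg, with limits of an adjusted p of 0.05 and 2-fold. It leaves 2 residual degrees of freedom. log2 fold changes are on this scale and understate differences of low genes, and fold differences are ratios of group means. edgeR 4.0.16 and DESeq2 1.42.0 on recovered reads, other scalings, a pseudocount of 5, a minimum of 1 or none, and leaving out a mouse were alternatives. Gene positions, exon lengths and overlaps came from GENCODE models on mm9, which matched all 50 members, and promoter windows from RefSeq. No window was in the table for 15 members.

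The members, roles and lists were chosen with earlier results of these data known, and the osteoclast and bone list after the values of Mmp9 and Mmp13 were seen. Values in every mouse were printed for the TIMP genes, Mmp2, Mmp9 and Mmp14, for members without overlap of libraries, for the 10 members with the highest mean and for members with a 2-fold difference. In the other lists, genes with both a 2-fold difference and no overlap were named, except 1 gene that is not reported here. Further genes named for contrast were chosen after their values were seen. No set test was run, since the lists were not chosen independently of these data.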

Additional observations from a re-analysis of the deposited data

How the results depend on the processing

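The count of members called lower was 0 with limma, 2 with DESeq2 on reads summed per mouse and 9 with DESeq2 on single libraries, which takes libraries of a mouse as replicates, and leaving out 1 LBR-null mouse gave 0 to 7. Without mouse 4001, limma called 7 members lower (Adamts2, Adamts5, Adamtsl2, Mmp2, Mmp15, Mmp13 and Adamts15), beside 3.83% of all genes, and without mouse 4002 it called 3 (Adamts5, Adamtsl2 and Mmp13), beside 1.66%. Without mouse 4007 it called 0 members and 0 genes. The count called higher was 0 in every setting except DESeq2 on single libraries, which gave 6 beside 10.7% of all genes. The count of members at least 2-fold higher was 7, and 2 with a pseudocount of 5, which shrinks ratios of low genes by construction. Leaving out a mouse gave 5 to 8 members 2-fold higher and 8 to 13 lower. The median log2 fold change of members stayed between -0.33 and -0.21 in all alternatives run. Leaving out a mouse moved the log2 fold change of Adamts10 (-0.21) between -0.44 and 0.23 and that of Timp3 (-0.12) between -0.23 and 0.026, both above 0 without mouse 4001, and the cause was not tested. Log2 fold changes also moved by over 1.5 times for Mmp9 (-1.15), Adamts1 (-0.49), Timp1 (-0.29), Mmp2 (-0.38) and Timp2 (-0.09) without mouse 4002, for Timp1 (-1.47), Mmp2 (-1.05) and Mmp14 (0.30) without mouse 4001 and for Mmp2 (-0.30) without mouse 4007. No paired analysis was possible because the repeat numbers in the labels number libraries of 1 mouse and the WT group holds 1 mouse. The single WT mouse limits every comparison, and at about 1 normalized count per read, members under 5 normalized counts could not be resolved.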
